A study of Caenorhabditis elegans with 10 samples.

Results

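C-type lectin-like and lysozyme genes encode proteins that act at the surfaces where worms meet bacteria, many of them secreted, and 107 such genes were followed here across the 10 RNA libraries of the series. They are the genes whose WormBase name starts with clec-, lys- or ilys- and whose normalized count averaged at least 10 over the 8 libraries at 20°C. Of the 107, 97 are clec genes, 6 are lys genes and 4 are ilys genes, among 13869 genes that reached the same mean. The table holds 137 genes with such names, and 30 stayed below the mean. The nearest below were *clec-247* with a mean of 9.06, *clec-99* with 9.41 and *clec-230* with 9.61, and the nearest above were *clec-233* with 10.02, *clec-232* with 10.4 and *clec-64* with 11.5.

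Proteins with a C-type lectin-like domain share a fold that in many animals binds sugars, and the worm genome carries a large, expanded family of them. Lysozymes cut the peptidoglycan of bacterial cell walls. The lys genes are of the protist type and the ilys genes of the invertebrate type. Many genes of both families are expressed in the intestine, and sets of them change when worms meet pathogenic bacteria, under the control of the p38 MAP kinase PMK-1, the insulin pathway factor DAF-16 and the TGF-beta-like ligand DBL-1.

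The libraries were made from whole young adult animals grown at 20°C. The wild type was N2. The *smg-1* and *smg-2* mutants, rrr59 and rrr60 by the study's strain list, came from a chemical mutagenesis screen and carry an integrated GFP reporter of nonsense-mediated decay (NMD), driven by the ubiquitous *dpy-30* promoter. SMG-1 is a kinase that phosphorylates the helicase SMG-2, and both are needed for NMD, the pathway that degrades mRNAs with premature stop codons. The *clk-2* strain carries a temperature-sensitive mutation, qm37 by the study's figure legend, and an mCherry reporter of NMD. The name of its data columns matches no single allele, and the columns were taken as *clk-2* because it joins parts of both temperature-sensitive allele names and no other strain was left over. CLK-2 is the worm counterpart of TELO2, which helps to assemble kinases of the SMG-1 family. The study's figure legend calls 20°C permissive for qm37 and 25°C restrictive. The study's methods name a lower permissive temperature, and give 3 hours at 25°C as the step that inactivates CLK-2. N2 carries neither reporter, so mutation and reporter strain cannot be told apart in a comparison with N2. There were 2 libraries of each strain at 20°C, and single libraries of *clk-2* and of N2 were made from animals kept for 3 hours at 25°C, a step the labels name heat shock. Nothing states that replicate libraries came from separate cultures, so p-values measure only the spread between these libraries, which may be technical.

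Library totals ran from 3051836 to 14209955 reads. The shallow ones were *clk-2* replicate 1 at 20°C with 3523986 reads and the *clk-2* library at 25°C with 3051836, in which 1 read is worth 2.59 and 2.93 normalized counts. Transcript levels of the mutated genes do not check the labels, since a point mutation need not lower the level of its mRNA: normalized counts of *smg-1* were 2222 and 2021 in N2 and 6206 and 5817 in *smg-1*, those of *smg-2* were 1202 and 987 in N2 and 1619.7 and 1673 in *smg-2*, and those of *clk-2* were 598 and 485 in N2 and 497 and 670.0 in *clk-2*. In whole-animal RNA, a change in the number of cells of a type and a change in RNA per cell cannot be told apart.

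Together the 107 genes took 0.320 and 0.375% of the reads in N2 at 20°C, 0.380 and 0.419% in *smg-1*, 0.412 and 0.453% in *smg-2*, and 0.554 and 0.534% in *clk-2*. At 25°C the share was 0.341% in N2 and 0.499% in *clk-2*. The *clk-2* libraries at both temperatures lay above all the others. The lys genes held 0.0467 and 0.0646% of the reads in N2 at 20°C and 0.119 and 0.120% in *clk-2*, a range without overlap. The ilys genes, by contrast, overlapped, with 0.0407 and 0.0559% in N2 and 0.0482 and 0.0256% in *clk-2*. In each of these libraries most ilys reads came from *ilys-5*, so the share says little of the other ilys genes.

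Normalized counts per gene averaged 10.02 to 5911 over the libraries at 20°C, with a median of 74.4, and 51 of the 107 genes averaged over 100. Per kilobase of exon, *clec-63* stood highest at 4558 normalized counts, followed by *lys-1* at 2939, *ilys-5* at 2825, *lys-8* at 2318 and *clec-50* at 1933. The genes lie on every chromosome, with 33 each on IV and V, 24 on II, 8 on I, 6 on III and 3 on X. For 28 of them another protein-coding gene overlaps the gene model (WBcel235). No strand setting is stated for the counting, so the values of these 28, which include *lys-8*, *ilys-4*, *clec-55*, *clec-78*, *clec-85*, *clec-87*, *clec-88*, *clec-97*, *clec-151*, *clec-153*, *clec-165* and *clec-221*, are uncertain in part.

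The first question was which of these genes differed from N2 in each mutant at 20°C. A gene was called when its log2 fold change, on the log2(value + 1) scale, was beyond 1 in either direction with an unadjusted p under 0.05 in a limma fit over all 13869 genes, the thresholds of the study. Adjusted p-values are over all genes of that fit. The 3 comparisons use the same 2 N2 libraries and are therefore not independent of each other. In *clk-2*, 34 of the 107 genes rose and 12 fell, while 8.41% of all genes tested rose and 10.3% fell. In *smg-1*, 18 rose and 4 fell, against 8.98% and 1.23% of all genes. In *smg-2*, 16 rose and 1 fell, against 6.86% and 0.382%. The median log2 fold change of the 107 genes was 0.58 in *clk-2*, 0.15 in *smg-1* and 0.34 in *smg-2*, while that of all genes tested was 0.02 in *clk-2* and -0.02 in each smg mutant. With adjusted p under 0.05 in place of unadjusted p, 31 rose and 12 fell in *clk-2*, 13 rose and 4 fell in *smg-1*, and 13 rose and 1 fell in *smg-2*. Of the 107, 61 genes were called in at least 1 mutant and 46 in none. Of all genes tested, 26.4% were called in at least 1 mutant. The mean of at least 10 was taken over libraries that include those of the mutants, for all genes alike. Members such as *clec-17*, *clec-61*, *clec-64*, *clec-76* and *lys-10* reached it only through *clk-2*. Others, such as *clec-22*, *clec-25*, *clec-55* and *clec-221*, reached it only through the smg mutants. That these genes stood high in those mutants was thus set by the filter.

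**Figure D1:**
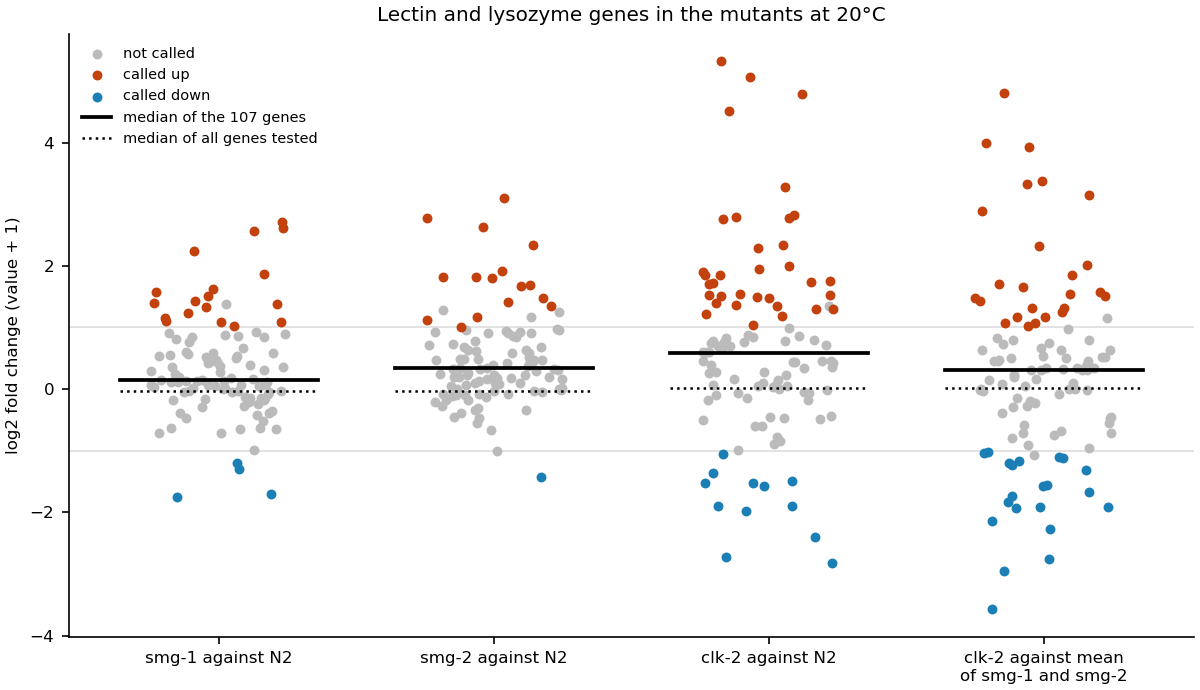
Log2 fold changes of the 107 genes (1 point each, spread sideways for legibility) in the 4 comparisons at 20°C, on the log2(value + 1) scale. Red points were called up and blue points called down. Solid lines are medians of the 107 genes and dotted lines medians of all genes tested. The *clk-2* column reaches highest, with 34 red and 12 blue points.

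The comparison of *clk-2* with the mean of *smg-1* and *smg-2* uses no N2 library. The smg strains and the *clk-2* strain carry different reporters, so mutation and reporter strain cannot be told apart here either. There, 25 of the 107 genes rose and 21 fell, against 6.81% and 15.8% of all genes tested. The median was 0.30, and 0.01 over all genes. Of the 34 genes that rose in *clk-2* against N2, 21 were also called up in this comparison, a share of 61.8%, and all 12 that fell were also called down. Over all genes tested the shares were 61.95% and 87.7%. Both comparisons use the same 2 *clk-2* libraries.

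Among the lysozymes, most calls were in *clk-2*: *lys-1*, *lys-2*, *lys-7*, *lys-10*, *ilys-2* and *ilys-3* rose in it and no lysozyme fell. No lys gene was called up in a smg mutant, and *ilys-2* rose in *smg-2*. The remaining lysozymes were *lys-4*, called down in *smg-1*, and *lys-8*, *ilys-4* and *ilys-5*, which were called in no mutant.

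Normalized counts of *lys-1*, an intestinal lysozyme, were 1488 and 1674 in N2, 2019 and 2260.3 in *smg-1*, 1959.7 and 2393 in *smg-2* and 4908 and 5844 in *clk-2* at 20°C. At 25°C, N2 had 1321 and *clk-2* 4290.3. The 3 *clk-2* libraries stood above all the others, and the smg libraries lay slightly above N2. The log2 fold change in *clk-2* was 1.76 (SE 0.13, adjusted p = 3.02e-05), a 3.39-fold rise. In *smg-1* it was 0.44 (adjusted p = 0.0449), below the threshold of a call.

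Its neighbour *lys-2*, whose expression in infection depends on the p38 pathway, gave 267 and 427 in N2, 273 and 387 in *smg-1*, 288 and 632 in *smg-2* and 1765 and 1038 in *clk-2*. The *clk-2* libraries were the highest, but the replicates of N2, *smg-2* and *clk-2* each lay far apart. The log2 fold change was 2.001 (SE 0.38, adjusted p = 0.00379) in *clk-2*, against -0.05 in *smg-1* and 0.34 in *smg-2*. At 25°C, N2 had 327 and *clk-2* 2128.

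For *lys-7*, a target of DAF-16 that contributes to resistance against several pathogens, values were 111 and 187 in N2, 128 and 179 in *smg-1*, 224 and 362 in *smg-2* and 505 and 437 in *clk-2*. N2 and *smg-1* overlapped, *smg-2* lay in between and *clk-2* on top. In *clk-2* its log2 fold change was 1.70 (SE 0.29, adjusted p = 0.00206), and in *smg-2* it was 0.98 (adjusted p = 0.0689), just below the fold threshold. The call against the smg mean, at 1.17, was lost at the fold threshold itself without *smg-2* replicate 1.

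The lysozyme gene *lys-10* was close to silent outside *clk-2*. Its normalized counts were 0.701 and 2.34 in N2, 2.13 and 0.857 in *smg-1* and 2.68 and 6.77 in *smg-2*, but 64.7 and 44.4 in *clk-2*. N2 held 4 reads over 2 libraries and *clk-2* held 94, a depth-corrected ratio of 32.8 with a 95% counting interval from 12.4 to 122.7, which covers counting error only. The fitted log2 fold change was 4.52 (SE 0.61, adjusted p = 0.000548). Since *lys-10* passed the filter only through *clk-2*, neither the interval nor the p-value tests its rise. At 25°C, *clk-2* had 20.5 and N2 1.66.

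The invertebrate-type lysozyme *ilys-3* acts in the pharynx and gut, where it breaks down bacteria. Its values were 4.21 and 16.4 in N2, 10.6 and 8.57 in *smg-1*, 15.4 and 12.2 in *smg-2* and 139.8 and 59.8 in *clk-2*. Only the *clk-2* libraries were high, and they differed from each other by over 2-fold. This was a log2 fold change in *clk-2* of 3.28 (SE 0.58, adjusted p = 0.00254). It ranged from 2.41 without N2 replicate 1 to 4.15 without N2 replicate 2.

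The gene next to it, *ilys-2*, had 42.1 and 21.1 in N2, 40.5 and 47.1 in *smg-1*, 87.9 and 81.3 in *smg-2* and 109 and 54.7 in *clk-2*. Both *smg-2* libraries and both *clk-2* libraries exceeded N2, with log2 fold changes of 1.47 (SE 0.38, adjusted p = 0.0394) and 1.34 (SE 0.38, adjusted p = 0.026). Without N2 replicate 2 these were 0.99 and 0.86, and without *clk-2* replicate 1 the second was 0.85, so both calls rest on single libraries.

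The remaining lysozymes had at most 1 call each. For *lys-8*, a gene regulated by DBL-1, values were 1710.2 and 2155 in N2 and 2849.9 and 2991 in *clk-2*, a log2 fold change of 0.60 (SE 0.14, adjusted p = 0.00916) that stayed below the fold threshold although the libraries did not overlap. Those of *ilys-5* were 3770.4 and 5188 in N2, 2997 and 2634 in *smg-1*, 4032 and 4279 in *smg-2* and 4017 and 2101 in *clk-2*, with no call in any mutant. For *lys-4* they were 930.1 and 1738 in N2, 564 and 538 in *smg-1*, 1109 and 1097 in *smg-2* and 774 and 646 in *clk-2*. The call of *lys-4* in *smg-1*, at -1.21 (SE 0.23, adjusted p = 0.00629), was lost at -0.75 without N2 replicate 2, the higher of the N2 libraries. The last, *ilys-4*, had 114 and 121 in N2 and 135 and 127 in *clk-2*.

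**Figure D2:**
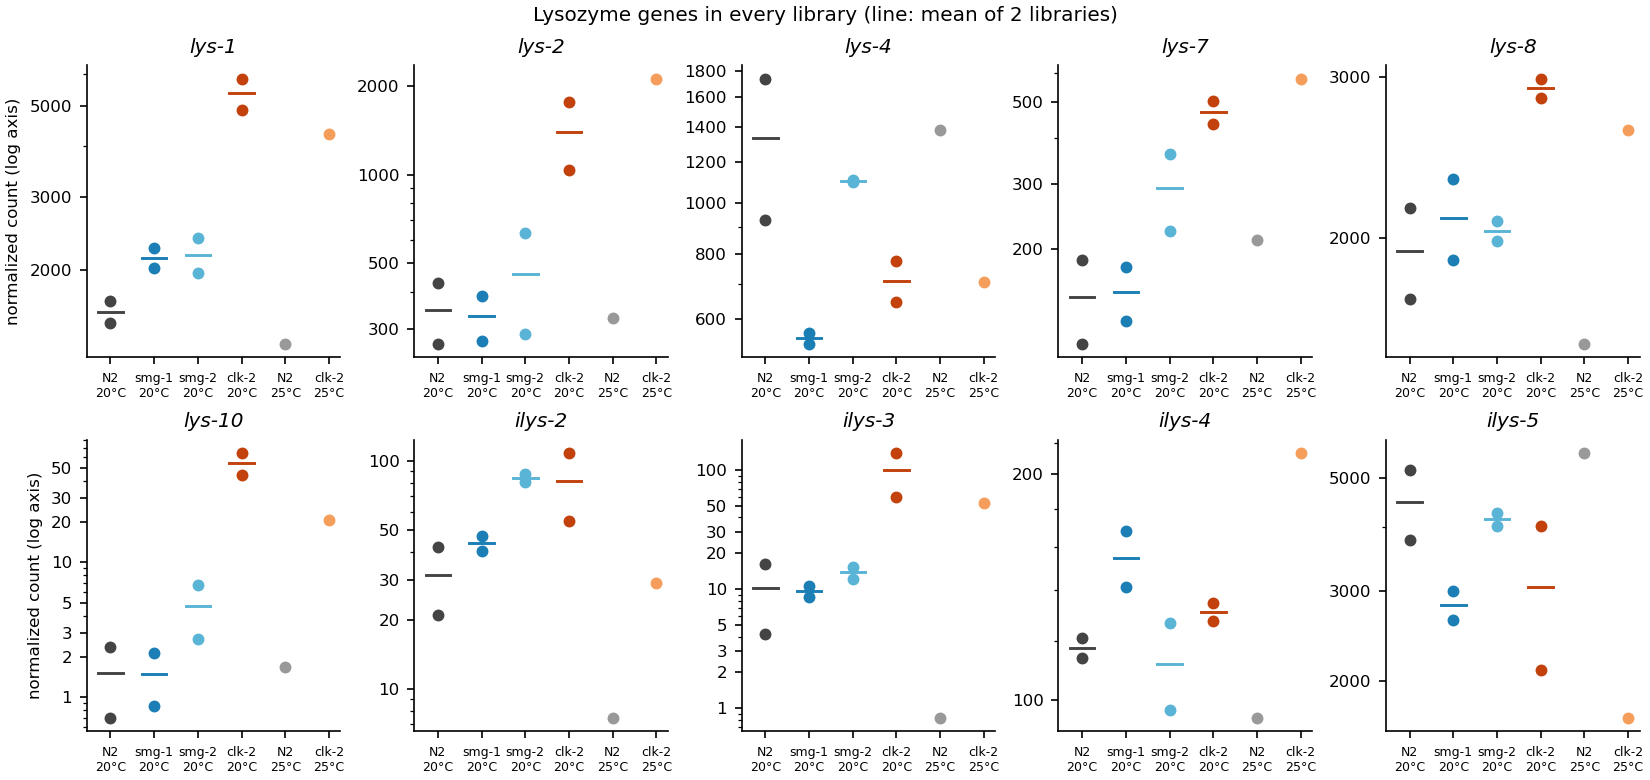
Normalized counts of the 10 lysozyme genes in every library (points, log axes that differ between panels), with the mean of 2 libraries as a line. The *clk-2* libraries lie above the N2 and *smg-1* libraries at 20°C in the panels of *lys-1*, *lys-2*, *lys-7*, *lys-8*, *lys-10*, *ilys-2* and *ilys-3*.

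Of the 97 clec genes, 28 rose and 12 fell in *clk-2*. Those that rose included genes with few reads in N2 as well as the most abundant of the family. For *clec-61*, a gene induced by *Staphylococcus aureus* infection, values were 0 and 3.12 in N2, 1.06 and 3.43 in *smg-1*, 1.34 and 0.677 in *smg-2* and 67.3 and 67.5 in *clk-2*. N2 held 4 reads and *clk-2* 131, a ratio of 45.7 with a 95% counting interval from 17.4 to 170.0. The fitted log2 fold change was 5.07 (SE 0.73, adjusted p = 0.000815). Since *clec-61* passed the filter only through *clk-2*, neither the interval nor the p-value tests its rise. At 25°C, N2 had 2.49 and *clk-2* 73.2, so the gene was at or near the level of single reads in every library other than the 3 of *clk-2*.

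The same held in part for *clec-17*, with 0 and 2.34 in N2, 7.45 and 1.71 in *smg-1*, 1.34 and 7.45 in *smg-2* and 69.9 and 74.6 in *clk-2*. N2 held 3 reads and *clk-2* 143, a ratio of 66.4 with a counting interval from 22.3 to 326. As *clec-17* also passed the filter only through *clk-2*, the interval does not test its rise. Without N2 replicate 1 the log2 fold change was 4.45 for *clec-17* and 4.05 for *clec-61*, and without N2 replicate 2 it was 6.19 and 6.10. For *clec-70*, values were 2.81 and 5.47 in N2, 9.58 and 8.57 in *smg-1*, 20.8 and 12.9 in *smg-2* and 171 and 109 in *clk-2*. All 4 smg libraries lay above N2 and both *clk-2* libraries far above these. The log2 fold change of *clec-70* was 4.79 (SE 0.41, adjusted p = 5.45e-05) in *clk-2* and 1.81 (SE 0.41, adjusted p = 0.0222) in *smg-2*. In *smg-1* it was 1.02 (adjusted p = 0.108), a call that was lost when N2 replicate 1 (0.64) or either *smg-1* library was left out (0.95 and 1.09, the last on its p-value).

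Genes with somewhat higher counts in N2 rose as well, and so did *clec-76*, which was low in N2. For *clec-71*, values were 14 and 18.7 in N2, 12.8 and 7.71 in *smg-1*, 19.4 and 6.77 in *smg-2* and 145 and 94.5 in *clk-2*, a log2 fold change of 2.78 in *clk-2* (SE 0.48, adjusted p = 0.00231). For *clec-76* they were 3.51 and 10.2 in N2 and 90.6 and 26.4 in *clk-2*, and its log2 fold change of 2.82 (SE 0.63, adjusted p = 0.00893) ranged from 1.95 without *clk-2* replicate 1 to 3.69 without *clk-2* replicate 2. Since *clec-76* passed the filter only through *clk-2*, its p-value does not test the rise. For *clec-180* the N2 libraries were far apart, at 59.6 and 293, below both *clk-2* libraries at 1297 and 628. Its log2 fold change of 2.76 (SE 0.59, adjusted p = 0.00727) was 1.62 without N2 replicate 1 and 3.90 without N2 replicate 2. None of these 3 genes was called in a smg mutant.

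A pair of clec genes known as outputs of the p38 pathway, *clec-67* and *clec-85*, rose in *clk-2*. Values of *clec-67* were 220.3 and 257 in N2, 135 and 230.4 in *smg-1*, 306 and 354 in *smg-2* and 810.2 and 767 in *clk-2*, with a log2 fold change of 1.72 (SE 0.22, adjusted p = 0.000406). Those of *clec-85* were 82.8 and 114 in N2, 125 and 128 in *smg-1*, 168 and 213 in *smg-2* and 256 and 299 in *clk-2*. Each strain stood above the one before it in this list for *clec-85*, and its log2 fold change was 0.96 (adjusted p = 0.013) in *smg-2*, below the fold threshold, and 1.501 (SE 0.20, adjusted p = 0.000502) in *clk-2*. The 6 genes of the p38 pathway itself that were measured were called in no mutant.

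The most abundant clec genes changed by smaller folds. For *clec-63*, the highest of all, values were 3592 and 4403 in N2, 4481 and 5740.3 in *smg-1*, 4555 and 6308 in *smg-2* and 8718 and 9493 in *clk-2*. Both *clk-2* libraries stood above the rest, a 2.29-fold rise (log2 fold change 1.19, SE 0.18, adjusted p = 0.000896). For *clec-41*, which is known to be antimicrobial, they were 1258 and 1539.7 in N2, 2347 and 2639 in *smg-1*, 2034 and 2433 in *smg-2* and 3458 and 3024 in *clk-2*. All 6 mutant libraries lay above both N2 libraries, and the log2 fold change of *clec-41* was 1.22 in *clk-2*, where it was called, against 0.84 in *smg-1* and 0.68 in *smg-2*, where it was not. All 3 mutants were above N2 in *clec-65* and *clec-265*: log2 fold changes in *smg-1*, *smg-2* and *clk-2* were 1.11, 0.93 and 1.36 for *clec-65*, and 1.16, 0.92 and 1.04 for *clec-265*. Against the smg mean, *clk-2* differed by 0.34 for *clec-65* (SE 0.12, adjusted p = 0.0454), below the fold threshold, and the comparison made no call for *clec-265* (SE 0.14 on the log2 scale, adjusted p = 0.995). The *smg-1* call of *clec-65* was lost at 0.93 without *smg-1* replicate 2, and the *clk-2* call of *clec-265* at 0.90 without N2 replicate 1 and at 0.81 without *clk-2* replicate 1.

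The other abundant clec genes were not called in *clk-2* against N2. For *clec-87*, values were 1921 and 1609 in N2, 966 and 817 in *smg-1*, 1495 and 1428 in *smg-2* and 2004 and 2887 in *clk-2*, so that *smg-1* was the lowest strain, at -0.98 (adjusted p = 0.00344), just inside the fold threshold. For *clec-88* they were 1033 and 851 in N2, 621 and 588 in *smg-1*, 738 and 745 in *smg-2* and 1354 and 1865 in *clk-2*, again with *smg-1* lowest and *clk-2* highest. Against N2, *clk-2* stood at 0.76 (adjusted p = 0.00574), below the fold threshold. Against the smg mean, *clec-88* rose in *clk-2* by 1.25 (SE 0.13, adjusted p = 6.65e-05) and *clec-87* by 1.08 (SE 0.15, adjusted p = 0.000285), the latter lost at 0.81 without *clk-2* replicate 2. The summed level of 6 oocyte markers was likewise lowest in *smg-1*, at 6747 and 6043, against 13322 and 9946 in N2, 9088 and 9199 in *smg-2* and 12187 and 16589 in *clk-2*, and its part in these differences was not tested. Of these markers, *oma-2* was called down in *smg-1*, and *oma-1*, *oma-2* and *egg-2* were called up in *clk-2* against the smg mean. In *clec-150* both smg mutants lay above N2 and *clk-2* did not, with 866 and 924 in N2, 1415 and 1651 in *smg-1*, 1655 and 1595 in *smg-2* and 815 and 864 in *clk-2*. Its log2 fold change of 0.77 in *smg-1* and 0.86 in *smg-2* (adjusted p = 0.000602) stayed below the fold threshold. In *clec-1* *smg-1* was lower than N2, at 465 and 499 against 723 and 863, a log2 fold change of -0.71 that was not called. For *clec-50* values ranged widely within strains, from 1613 and 2242 in N2 to 1672 and 3048 in *smg-2*. In *clec-5* all 6 mutant libraries exceeded N2, with 430.0 and 497 in N2, 1063 and 904 in *smg-1*, 800.1 and 525 in *smg-2* and 934 and 729 in *clk-2*. In *clk-2* its log2 fold change was 0.83 (adjusted p = 0.0127), below the fold threshold. Its call in *smg-1* at 1.08 was lost at 0.98 without N2 replicate 1 and at 0.97 without *smg-1* replicate 1.

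The 12 genes that fell in *clk-2*, a share of 11.2% beside 10.3% of all genes tested, were *clec-47*, *clec-53*, *clec-73*, *clec-79*, *clec-117*, *clec-119*, *clec-123*, *clec-151*, *clec-153*, *clec-175*, *clec-218* and *clec-260*. Their means over the libraries at 20°C ran from 49.99 to 589, with a median of 208. None of them was called in a smg mutant, where their log2 fold changes ran from -0.62 to 0.91 in *smg-1* and from -0.55 to 0.78 in *smg-2*. The deepest fall was that of *clec-117*, with 132 and 149.9 in N2, 77.7 and 106 in *smg-1*, 104 and 98.2 in *smg-2* and 20.7 and 17.4 in *clk-2*, a log2 fold change of -2.83 (SE 0.23, adjusted p = 3.94e-05). For *clec-47*, values were 495 and 470.0 in N2, 824 and 999 in *smg-1*, 943 and 731 in *smg-2* and 82.8 and 62.4 in *clk-2*. The smg mutants thus stood above N2 and *clk-2* far below it, with log2 fold changes of 0.91 (adjusted p = 0.00642) and 0.78 (adjusted p = 0.0211) that were not called, and -2.73 (SE 0.18, adjusted p = 2.14e-05) in *clk-2*. Against the smg mean, *clec-47* differed by -3.58 (SE 0.15, adjusted p = 4.19e-07).

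For *clec-123*, values were 663 and 620.0 in N2 and 148 and 197 in *clk-2*, for *clec-119* they were 186 and 187 and 44 and 49.5, for *clec-175* 102 and 99.9 and 28.5 and 24.4, and for *clec-260* 37.9 and 60.1 and 5.18 and 12.9. The replicates of *clec-119*, *clec-123* and *clec-175* lay close together in both strains, and their log2 fold changes were -1.97, -1.90 and -1.90, with adjusted p between 5.07e-05 and 0.000364. That of *clec-260* was -2.40 (SE 0.40, adjusted p = 0.00194). The smallest fall was that of *clec-218*, at -1.06 (SE 0.26, adjusted p = 0.0153), lost at -0.60 without N2 replicate 1 and at -0.95 without *clk-2* replicate 2.

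Markers of other cell types moved in the same comparison. Of 35 sperm genes, which are the *msp* genes and 5 others, 34 fell in *clk-2*, with a median of -1.92. Their summed level was 26091 and 32762 in N2, 17966 and 17891 in *smg-1*, 21659 and 18986 in *smg-2*, and 7669.7 and 7705 in *clk-2*. The direction is that of the 12 clec genes that fell, and the part of sperm RNA in their fall was not tested. In the smg mutants the sperm sum was also lower than in N2, with 6 sperm genes called down and 1 up in *smg-1*, and 2 down and 1 up in *smg-2*. Of 4 hypodermis genes, *dpy-7*, *rol-6* and *bli-1* rose in *clk-2* and *dpy-7* in *smg-2*, whereas the sum over the list, in which *col-19* is included, was 20194 and 19272 in N2 and 16864 and 18345 in *clk-2*. In N2 the libraries stood far apart in all 3 genes, at 11.2 and 106 for *dpy-7*, 43.5 and 273 for *rol-6* and 83.5 and 415 for *bli-1*, with N2 replicate 1 low, as it was in *clec-4*, *clec-72* and *clec-180*. Their part in the rises in *clk-2* was not tested. None of the 6 intestine genes was called in any mutant, and their sum was 11188 and 15447 in N2, 13888 and 14699 in *smg-1*, 12864 and 13419 in *smg-2*, and 18285 and 15029 in *clk-2*, so the ranges of N2 and *clk-2* overlapped. No marker of any of these lists was at 0 in a library at 20°C.

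Up in both smg mutants were 13 genes, *clec-8*, *clec-12*, *clec-22*, *clec-25*, *clec-55*, *clec-64*, *clec-70*, *clec-72*, *clec-75*, *clec-165*, *clec-185*, *clec-221* and *clec-225*, and *clec-97* was down in both. Of all genes tested, 5.83% were up in both and 0.224% down in both. The 13 genes had a median mean of 30.6 at 20°C. Both smg comparisons were made with the same N2 libraries. Of the 13, the genes *clec-25*, *clec-64*, *clec-70*, *clec-72*, *clec-75* and *clec-225* also rose in *clk-2*, and 24 of the 107 genes were called up in *clk-2* and in neither smg mutant. Of all genes tested, 1.25% were up in all 3 mutants and 5.81% in *clk-2* and neither smg mutant.

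Among the 13 genes, *clec-165* had 49.1 and 67.1 in N2, 326 and 388 in *smg-1*, 393 and 409.8 in *smg-2* and 88 and 111 in *clk-2*. The 4 smg libraries were far higher than any other. Its log2 fold change was 2.61 (SE 0.20, adjusted p = 2.03e-05) in *smg-1*, 2.78 (SE 0.20, adjusted p = 1.33e-05) in *smg-2* and 0.77 (adjusted p = 0.0166) in *clk-2*, below the fold threshold. Against the smg mean, *clk-2* was lower by a log2 fold change of -1.92 (SE 0.17, adjusted p = 1.97e-05).

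For *clec-221*, values were 9.12 and 13.3 in N2, 40.5 and 45.4 in *smg-1*, 39.6 and 35.9 in *smg-2* and 7.77 and 3.21 in *clk-2*. The smg libraries were the highest and the *clk-2* libraries the lowest, with log2 fold changes of 1.87 (SE 0.41, adjusted p = 0.0115) and 1.69 (SE 0.41, adjusted p = 0.0301) in the smg mutants and -2.76 (SE 0.36, adjusted p = 0.000196) for *clk-2* against their mean. Since *clec-221* passed the filter only through the smg mutants, these p-values do not test its height there. For *clec-225* values were 7.01 and 12.5 in N2, 40.5 and 57.4 in *smg-1*, 36.2 and 35.2 in *smg-2* and 28.5 and 27.6 in *clk-2*. All 6 mutant libraries lay above N2, and its log2 fold change was 2.24 in *smg-1* (adjusted p = 0.00157), 1.82 in *smg-2* (adjusted p = 0.0068) and 1.48 in *clk-2* (adjusted p = 0.00999). With *clec-25* the pattern was alike, at 4.21 and 2.34 in N2, 23.4 and 24 in *smg-1*, 22.1 and 27.8 in *smg-2* and 23.3 and 8.36 in *clk-2*. Like *clec-221*, it passed the filter only through the smg mutants. The 9 N2 reads and 22 *clk-2* reads of *clec-25* gave a ratio of 3.41 with a counting interval from 1.51 to 8.41. Its log2 fold change in *clk-2* was 1.17 without *clk-2* replicate 1 and 2.54 without *clk-2* replicate 2.

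In *clec-55* the 7 N2 reads made the size of the rise depend on the library. Values were 0.701 and 4.68 in N2, 18.1 and 20.6 in *smg-1*, 26.8 and 24.4 in *smg-2* and 10.4 and 4.5 in *clk-2*. The log2 fold change was 2.71 (adjusted p = 0.0121) in *smg-1* and 3.10 (adjusted p = 0.00878) in *smg-2*, and without N2 replicate 1 these were 1.84 and 2.23, while without N2 replicate 2 they were 3.58 and 3.96. As *clec-55* passed the filter only through the smg mutants, the p-values do not test its rise in them. For *clec-75* values were 7.72 and 10.9 in N2, 19.2 and 48 in *smg-1*, 38.2 and 66.4 in *smg-2* and 49.2 and 30.2 in *clk-2*, so that every mutant library stood above N2. The *smg-1* call of *clec-75*, at 1.62, was lost at 0.98 without *smg-1* replicate 2 and was 2.26 without *smg-1* replicate 1. In *clec-246* the *smg-2* libraries alone were high, with 42.3 and 44.7 against 16.1 and 7.03 in N2, 11.7 and 15.4 in *smg-1* and 10.4 and 12.9 in *clk-2*, a log2 fold change of 1.92 (SE 0.42, adjusted p = 0.0168).

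In the smg mutants, *clec-97*, *clec-139*, *clec-146* and *lys-4* fell. For *clec-97*, values were 51.2 and 57.8 in N2, 21.3 and 11.1 in *smg-1*, 18.1 and 21 in *smg-2* and 62.1 and 52.1 in *clk-2*, with both smg mutants lower than N2 and *clk-2* level with it. Its log2 fold change was -1.75 (SE 0.33, adjusted p = 0.00561) in *smg-1* and -1.43 (SE 0.33, adjusted p = 0.0238) in *smg-2*. In *clec-139* *smg-1* was low, at 11.7 and 13.7 against 55.4 and 34.4 in N2 and 31.5 and 47.4 in *smg-2*, a log2 fold change of -1.71 (SE 0.33, adjusted p = 0.00602). In *clec-146* the *smg-1* values were 13.8 and 14.6 against 45.6 and 28.9 in N2, and the call at -1.30 was lost at -0.98 without N2 replicate 1.

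Some calls rested on single libraries. Leaving out 1 library ended the call of 12 of the 22 genes called in *smg-1*, 5 of 17 in *smg-2*, 6 of 46 in *clk-2* and 12 of 46 in *clk-2* against the smg mean. Without N2 replicate 2 the number up in *smg-2* was 26 in place of 16 (1286 in place of 951 over all genes tested). In *smg-1*, besides the genes given above, these were *clec-12* without N2 replicate 2, *clec-22*, *clec-64*, *clec-143* and *clec-185* without N2 replicate 1 or a *smg-1* library, and *clec-72* without N2 replicate 1, with log2 fold changes between 0.77 and 1.32. In *smg-2* they were *clec-8*, *clec-22*, *clec-64* and *clec-185*, between 0.68 and 1.27, beside *ilys-2*. In *clk-2* they were *clec-4*, *clec-206* and *clec-233*, between 0.85 and 1.87, beside *clec-218*, *clec-265* and *ilys-2*. The call of *clec-4* was lost without N2 replicate 1 at 1.12 and, by its p-value, without either *clk-2* library.

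**Figure D3:**
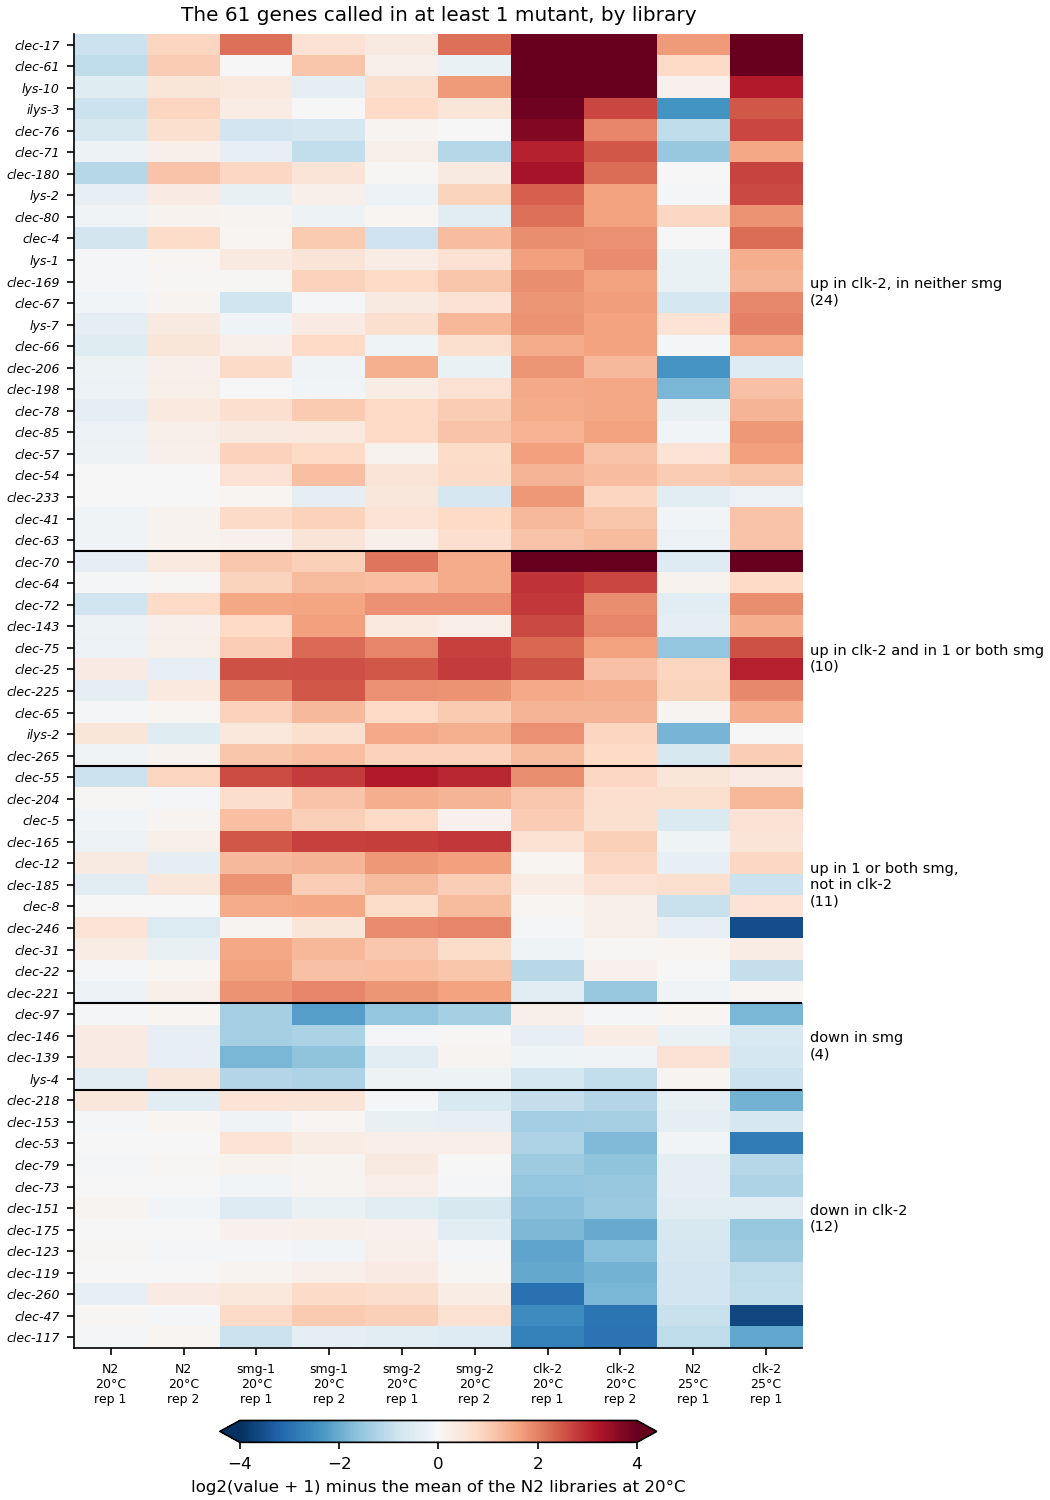
Log2(value + 1) of the 61 genes called in at least 1 mutant, in all 10 libraries, relative to the average of N2 at 20°C. Colours saturate at 4 in either direction, rows are grouped by their calls at 20°C, and the number of genes in each group stands at the right. Through this grouping, the 24 genes at the top are red in the *clk-2* libraries at 20°C, and the 12 at the bottom are blue in them.

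Replicates differed by over 2-fold in a larger share of these genes than of all genes. The 2 N2 libraries differed by over 2-fold in 11.2% of the 107 genes, against 6.12% of all genes tested, of which 743 were over 2-fold higher in N2 replicate 2 and 106 in N2 replicate 1. In *smg-2* it was 8.41% against 1.11%, in *clk-2* 11.2% against 5.05%, and in *smg-1* 2.80% against 1.39%. Examples in N2 were *clec-180* at 59.6 and 293, *clec-72* at 16.8 and 53.1 and *clec-4* at 50.5 and 142.

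Many of the genes lie beside relatives. Within 20 kb of the next one, 60 of the 107 genes formed 20 runs. The longest, on chromosome IV from 3922165 to 4014235 (WBcel235), held 9 of them among 22 protein-coding genes, in the order *clec-67*, *clec-70*, *clec-71*, *clec-72*, *clec-73*, *clec-75*, *clec-76*, *clec-79* and *clec-78*. Of these, 7 rose in *clk-2* and 2 fell. The falls were those of *clec-73*, with 679.7 and 667 in N2 and 228 and 237 in *clk-2*, and of *clec-79*, with 636 and 683 in N2 and 243 and 214 in *clk-2*. Their neighbours moved the other way, as in *clec-72*, with 16.8 and 53.1 in N2 and 220.0 and 111 in *clk-2*, and in *clec-78*, with 14.7 and 26.5 and 56.9 and 59.8. The log2 fold changes in *clk-2* were -1.53 (adjusted p = 5.48e-05) for *clec-73*, -1.53 (adjusted p = 6.52e-05) for *clec-79*, 2.34 (adjusted p = 0.0048) for *clec-72* and 1.51 (adjusted p = 0.00667) for *clec-78*. That of *clec-72* was 1.54 without N2 replicate 1 and 3.14 without N2 replicate 2. In the smg mutants *clec-73* and *clec-79* differed from N2 by at most 0.18, while *clec-70*, *clec-72* and *clec-75* rose in both.

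On chromosome II from 12893062 to 12906644, the run of *clec-62*, *clec-63*, *clec-64*, *clec-65* and *clec-66* held no other protein-coding gene. All but *clec-62* rose in *clk-2*. For *clec-62*, values were 193 and 207 in N2 and 362 and 329 in *clk-2*, a log2 fold change of 0.79 (adjusted p = 0.00389) below the fold threshold. For *clec-66* they were 126 and 248 in N2 and 499.6 and 536 in *clk-2*, and for *clec-64* 2.81 and 3.12 and 28.5 and 24.4. The rise of *clec-64*, from 8 reads in N2 to 49 in *clk-2*, was a ratio of 8.54 with a counting interval from 4.01 to 20.9. All 5 genes of the run were thus higher in both *clk-2* libraries than in either N2 library, at levels that differed widely between them. The same held for 60 of the 107 genes and for 4151 of all 13869 genes tested. Of the 5, *clec-64* passed the filter only through *clk-2*, so its interval does not test its rise.

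Of the 4 genes on chromosome IV from 2823746 to 2855456, *clec-80* and *clec-85* rose in *clk-2*, while *clec-83* and *clec-84*, at 0.75 and 0.70, stayed below the fold threshold. For *clec-80*, values were 16.1 and 19.5 in N2 and 85.4 and 55.9 in *clk-2*. Pairs moved together in *lys-1* with *lys-2* and *ilys-3* with *ilys-2*, which all rose in *clk-2*, and in *clec-151* with *clec-153* on chromosome III, which both fell. Values were 371 and 325 in N2 and 109 and 125 in *clk-2* for *clec-151*, and 206 and 230.3 and 82.8 and 85.5 for *clec-153*. Another gene, *pfas-1*, overlaps both. A pair on chromosome II divided instead: *clec-8* rose in the smg mutants, with 42.8 and 41.4 in N2, 119.2 and 124 in *smg-1*, 71.1 and 103 in *smg-2* and 44 and 49.5 in *clk-2*, whereas its neighbour *clec-4* rose in *clk-2*, with 50.5 and 142 in N2 and 313 and 305 in *clk-2*. The reads kept were those that map to 1 place, so near-identical stretches of neighbouring genes are not counted.

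**Figure D4:**
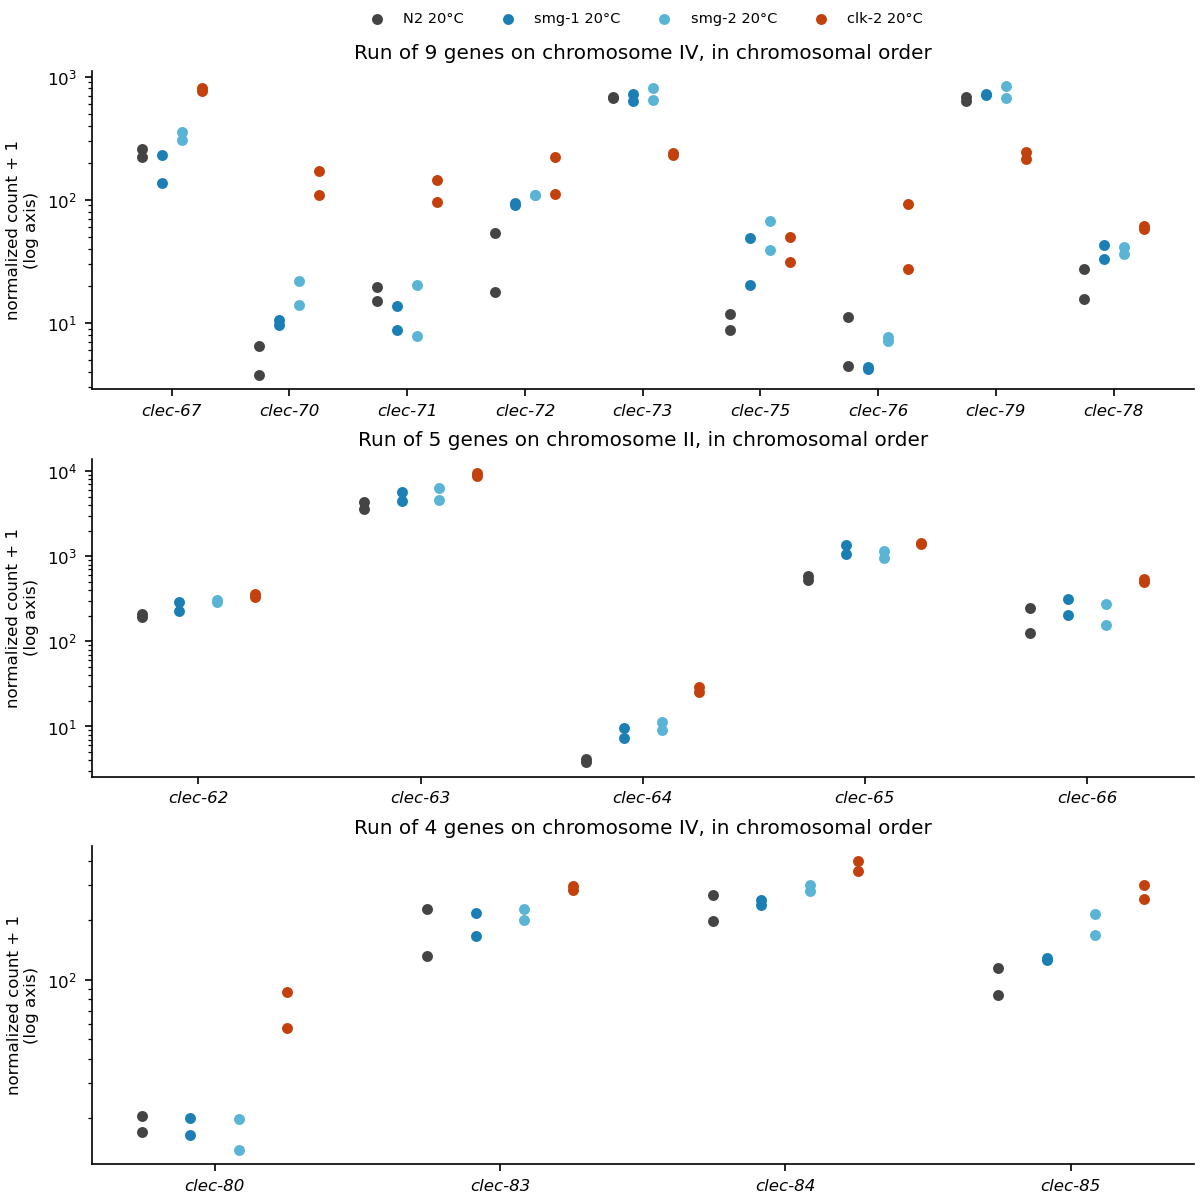
Normalized counts (plus 1, log axes) in the 8 libraries at 20°C for the genes of 3 runs, in chromosomal order. Each point is 1 library, coloured by strain. In the top panel the *clk-2* points of *clec-73* and *clec-79* lie below those of N2, and those of the other 7 genes above.

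The libraries at 25°C, 1 each of N2 and *clk-2*, ask whether the differences seen at 20°C were present after the shift. With 1 library a strain there is no test, and a difference from 20°C was counted when it passed 2-fold and lay beyond both libraries at 20°C. Between N2 and *clk-2* at 25°C, 38 of the 107 genes were more than 2-fold higher in *clk-2* and 13 more than 2-fold lower, against 12.7% and 6.19% of all genes tested. All 34 genes that rose in *clk-2* at 20°C were higher in *clk-2* than in N2 at 25°C, 30 of them by over 2-fold, with a median difference of 1.84 on the log2 scale. Of the 12 that fell, 11 were lower at 25°C, 4 of them by over 2-fold, with a median of -0.81. Over all genes tested, 93.1% of those up in *clk-2* at 20°C were higher at 25°C, 75.1% by over 2-fold, and 85.9% of those down were lower, 30.1% by over 2-fold, so the 12 genes lay near the background. The exception was *clec-151*, for which the *clk-2* library had 260.5 and the N2 library 252.

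At 25°C, *clec-180* had 131 in N2 and 875 in *clk-2*, *clec-67* had 146 and 904, and *clec-72* had 22.4 and 111. For *clec-70* it was 2.49 and 93.6. Among those lower in *clk-2*, *clec-47* had 259 in N2 and 38 in *clk-2*, *clec-48* had 423 and 108, and *clec-218* had 492 and 164. The lysozyme *ilys-5*, which was not called at 20°C, had 5609 in N2 and 1689 in *clk-2*. Of the genes not called in *clk-2* at 20°C, *clec-197* and *clec-137* were furthest above N2 at 25°C, from 0 to 32.2 and from 2.49 to 26.3, which in *clk-2* is 11 and 9 reads.

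After the shift, differences past 2-fold were more often downward in these genes. In N2, 2 of the 107 genes were past 2-fold up at 25°C and 11 down, against 1.15% and 3.09% of all genes tested. In *clk-2*, 4 were up and 15 down, against 3.68% and 2.99%. The medians over the 107 genes were -0.19 in N2 and -0.16 in *clk-2*, and -0.00 and 0.01 over all genes. Down in both strains were *clec-3*, *clec-71*, *clec-206* and *ilys-2*. The share of all genes tested that was down in both strains is not given here, so this overlap has no background beside it. For *ilys-2*, values in N2 went from 42.1 and 21.1 at 20°C to 7.47 at 25°C, and in *clk-2* from 109 and 54.7 to 29.3. For *clec-206* they went from 21.7 and 29.7 to 4.15 in N2 and from 88 and 63.7 to 17.6 in *clk-2*. For *clec-71* they went from 14 and 18.7 to 4.98 and from 145 and 94.5 to 49.8. That the 25°C value of all 3 genes was lower than both 20°C values in each strain was set by the way such genes were counted. Moving the other way, *clec-151* in *clk-2* went from 109 and 125 to 260.5. In N2, *clec-117* went from 132 and 149.9 to 69.7. With a mean of at least 100 required, 1 gene was past 2-fold up in *clk-2* and 0 were past 2-fold in any other direction after the shift, and most of the genes counted above have low means.

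**Figure D5:**
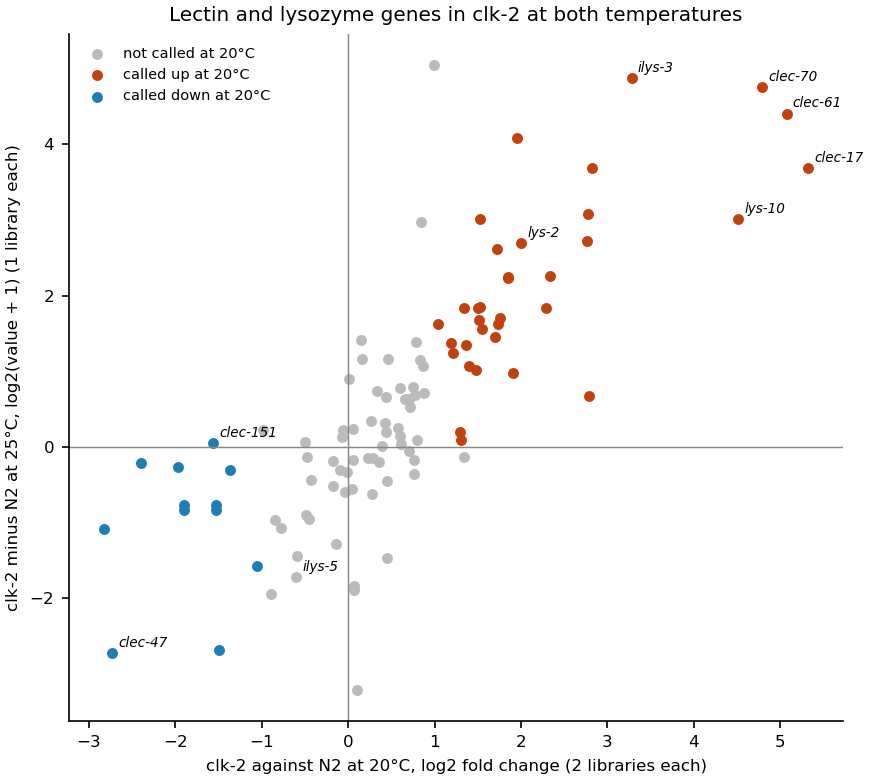
Difference between *clk-2* and N2 for the 107 genes at 20°C (x axis, log2 fold change from 2 libraries a strain) and at 25°C (y axis, difference of log2(value + 1) between 1 library a strain). Red points were called up and blue points called down at 20°C. All 34 red points lie above 0 on the y axis, and 11 of the 12 blue points lie below it.

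Other genes of gut and surface defence gave a mixed picture in the same comparisons. Of 19 saposin-like spp genes tested, which encode pore-forming and related proteins, 5 rose and 2 fell in *clk-2*, where 8.41% of all genes rose and 10.3% fell. Values of *spp-18* were 21 and 39.8 in N2 and 236 and 204 in *clk-2*, and those of *spp-17* were 389 and 476 and 72.5 and 56.6. Of 35 genes for antimicrobial peptides of the abf, cnc, fip, fipr and nlp groups, 11 fell in *clk-2* and 1 rose. The epidermal peptide gene *nlp-29* had 1348 and 1092 in N2, 1234 and 1704 in *smg-1*, 1666 and 1135 in *smg-2* and 106 and 109 in *clk-2*. The epidermal gene *cnc-4* had 184 and 203 in N2, 967 and 1219 in *smg-1*, 387 and 368 in *smg-2* and 33.7 and 50.8 in *clk-2*, a rise in *smg-1* and a fall in *clk-2*. In *smg-1*, 5 of the 35 rose and none fell, and in *smg-2* 1 rose and none fell, where 8.98% and 6.86% of all genes rose.

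Among 18 proteases of the asp and cpr groups, 3 rose and none fell in *clk-2*. One was *asp-8*, at 67.3 and 60.1 in N2 and 549 and 343 in *clk-2*. Of 7 irg genes, which respond to infection, *irg-5* rose in *clk-2*, from 116 and 117.1 in N2 to 1431 and 589, and *irg-1* and *irg-2* fell in it. In *smg-1*, *irg-1* and *irg-2* also fell. The gene *irg-5* depends on the p38 pathway, and *irg-1* on the transcription factor ZIP-2, whose own gene *zip-2* rose in *clk-2*, with 808 and 1434 in N2 and 3192 and 1975 in *clk-2*. It was the only call in *clk-2* among 6 gut transcription factor genes. No gene of the 6 p38 pathway genes or the 8 insulin pathway genes was called in any mutant, and of the 8 DBL-1 pathway genes *sma-2* was called, up in *smg-2*. Of 2 thaumatin-like genes, *thn-1* rose in *clk-2*. Of 12 galectin genes *lec-7* rose in both smg mutants and none was called in *clk-2*.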

How the data were processed

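Deposited for each library was 1 signal a gene: counts of reads on exons of protein-coding genes, from uniquely mapped reads (STAR 2.5.4a, WBcel235, per the labels and the study's methods), which the authors divided by 1 size factor per library. In each library 100% of values were whole multiples of 1 read, within 0.01 reads. Of 15106 genes, the 13869 with a mean of at least 10 at 20°C were analysed as log2(value + 1) with limma 3.58.1 in R 4.3.3, with the 8 libraries at 20°C in 1 fit, a variance trend and Benjamini-Hochberg adjustment. Calls used a log2 fold change beyond 1 and unadjusted p under 0.05. The fits were tested on simulated data. edgeR 4.0.16 and DESeq2 1.42.0 on the recovered reads were alternatives, as were other pseudocounts, filters, scaling, a replicate block and leaving out each library.

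Single genes described are all lysozymes, the 10 clec genes of highest mean, up to 6 genes per comparison and direction with the largest change among calls whose libraries do not overlap, and up to 4 per direction at 25°C. Others, such as *clec-4*, *clec-8*, *clec-66*, *clec-72*, *clec-73*, *clec-78*, *clec-79*, *clec-80*, *clec-85* and *clec-153*, were chosen after their values were seen. The genes and lists were chosen with earlier results of these data known. Names and coordinates come from the Ensembl annotation of WBcel235. No sequences are given.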

Additional observations from a re-analysis of the deposited data

How the results depend on the processing

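Over all called genes, comparisons and alternatives at 20°C, the call was kept 2376 times and lost, with the same direction, 162 times. It reversed in no case. Many of these checks could not change the fold change, such as adjusted p, separate fits and leaving out a library outside the comparison. With a mean of at least 100 required, only 49 calls were checked, and calls of genes below that mean were not counted as lost. With a mean of at least 100 required, 5 of the 107 genes were up and 1 down in *smg-1*. In *smg-2*, 2 were up and 0 down, and in *clk-2* 14 were up and 8 down. Against the smg mean, 9 were up and 10 down in *clk-2*. At 25°C, *clk-2* then had 17 above and 5 below N2 by over 2-fold, and after the shift 0 were up and 0 down in N2 and 1 up and 0 down in *clk-2*. These counts are for the 51 genes that passed this filter, among 8688 of all genes. Of the 8688, 506 were up and 60 down in *smg-1* and 399 up and 9 down in *smg-2*. In *clk-2*, 362 were up and 696 down, and against the smg mean 333 up and 1039 down. The share up in *smg-2* was thus no higher among the 51 than among the 8688. With a pseudocount of 10, counts after the shift were 0 up and 3 down in N2 and 1 up and 8 down in *clk-2*. With quantile normalization, 2 genes were down in *smg-2*, beside 158 of all 13869 genes tested. Leaving out 1 library at a time gave 13 to 23 up and 3 to 5 down in *smg-1*, 14 to 26 up and 1 to 2 down in *smg-2*, 29 to 39 up and 12 to 14 down in *clk-2*, and 20 to 25 up and 19 to 22 down in *clk-2* against the smg mean. Over all 13869 genes tested those ranges were 1092 to 1650 and 167 to 290 in *smg-1*, and 900 to 1286 and 50 to 311 in *smg-2*. They were 880 to 1384 and 1332 to 1505 in *clk-2*, and 752 to 1025 and 2118 to 2258 against the smg mean. In *clk-2*, edgeR gave 34 up and 13 down and DESeq2 32 up and 12 down. Over all genes edgeR gave 1140 up and 1447 down and DESeq2 1025 up and 1359 down. Replicate numbers gave no common pairing over all genes: correlations of the deviations of same-numbered libraries ran from -0.27 to 0.10. Among the 107 genes, however, 28 were higher in replicate 2 in each of N2, *smg-1* and *smg-2*. This is 26.2%, against 13.4% of all genes tested. With the replicate block, 18 were up and 4 down in *smg-1*, 14 up and 1 down in *smg-2*, 34 up and 12 down in *clk-2*, and 25 up and 21 down in *clk-2* against the smg mean. Over all genes the block gave 1239 up and 170 down in *smg-1* and 943 up and 51 down in *smg-2*. It gave 1158 up and 1424 down in *clk-2*, and 938 up and 2187 down against the smg mean. With the *clk-2* numbers crossed in the block, an alternative chosen after seeing the data, 35 were up and 12 down in *clk-2*. Over all genes 1177 were then up and 1426 down. Thinning all libraries at 20°C to the depth of the shallowest, also chosen after seeing the data, gave 36 up and 11 down in *clk-2*. Over all genes thinning gave 1270 up and 1266 down. The depth of the *clk-2* libraries limits genes with few reads, such as *lys-10*, *clec-25* and *clec-55*.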
